A study of Mus musculus with 12 samples.

Results

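Neutrophils of PyMT breast tumors were identified among CD11c-selected cells by their transcripts. A cell was taken as a neutrophil if it held at least 2 unique molecular identifiers (UMIs, 1 per captured mRNA molecule) of S100a8, at least 2 of S100a9, at least 1 of Csf3r, and no more than 2 of C1qa. Of 11639 cells with at least 200 detected genes, 118 met this rule, or 1.01% (95% confidence interval [CI] 0.840% to 1.21%, exact Clopper-Pearson). The levels of these 4 genes therefore chose the members and are given only as a description. The interval of the share treats the cells as independent and holds no spread between samples.

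The tumors arose in mice carrying the MMTV-PyMT transgene, in which a mammary tumor virus promoter drives the polyoma middle T oncogene, without further treatment. The CD11c arm had 3 wild-type samples and 3 PAR2 G37I mutant samples, the latter from mice with a protease-activated receptor 2 that coagulation factor Xa cannot signal through. Cells of late-stage tumors were selected with CD11c beads, frozen, thawed, and sequenced on the 10x Genomics platform, and the labels give no age for the mice, which were killed once tumors had grown to the size limit. CD11c is the integrin encoded by Itgax, and the labels name macrophages and DCs as the selected cells. The selection may have shaped which neutrophils were seen, which was not tested.

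All 6 samples were deposited in 1 matrix whose barcodes carry no sample name, so the matrix counted as 1 sample, no genotypes were compared, and no value has a replicate error or a test. The barcode list passes through the alphabet 6 times, and these unlabelled stretches are called barcode runs. The kept cells held 123642015 UMIs in all, and the runs held 13314063 to 24231244. Between runs, 76 barcodes occurred more than once, and 2 neutrophils carried such a barcode. Neutrophils were compared with 6286 macrophages (at least 1 UMI of Csf1r and 3 of C1qa), and 94 monocytes (Ly6c2 and Csf1r) and 56 T cells (Cd3e and Cd3g) served as further classes. A level is the UMIs of a gene summed over a class divided by all UMIs of that class, in counts-per-million (CPM). Its interval is an exact 95% Poisson interval, which covers counting error only.

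Neutrophils are short-lived granulocytes that leave the bone marrow with granules already filled, and their number in blood is set by granulocyte colony-stimulating factor acting on its receptor, CSF3R. S100A8 and S100A9 pair to form calprotectin, a calcium- and zinc-binding protein that makes up much of the neutrophil cytosol. In tumors, neutrophils can live longer and take on other programs, and cells expressing the sialic acid-binding lectin Siglec-F have been described among them in mice.

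The genes of the calprotectin pair, on which the rule rests, lie close together on chromosome 3. In the GENCODE M21 annotation of GRCm38, S100a8 spans chr3:90668978-90670035 on the plus strand and S100a9 spans chr3:90692632-90695721 on the minus strand, with 22596 bases between them. The stretches before both genes are shown because the pair defines the cells. They come from RefSeq promoter windows on GRCm38.p6, end before the first annotated exon, and run 5′ to 3′ along the strand of the gene (chr3:90668821-90668977, plus, and chr3:90695722-90695971, minus). Capitals mark matches to the PU.1-type motif GAGGAAGT or the C/EBP-type motif TTGCNNAA, searched on both strands, where no matches of the pair of motifs overlapped.
S100a8: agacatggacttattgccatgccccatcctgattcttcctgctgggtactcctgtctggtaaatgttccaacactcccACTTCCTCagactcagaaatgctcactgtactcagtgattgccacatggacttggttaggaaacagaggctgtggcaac
S100a9: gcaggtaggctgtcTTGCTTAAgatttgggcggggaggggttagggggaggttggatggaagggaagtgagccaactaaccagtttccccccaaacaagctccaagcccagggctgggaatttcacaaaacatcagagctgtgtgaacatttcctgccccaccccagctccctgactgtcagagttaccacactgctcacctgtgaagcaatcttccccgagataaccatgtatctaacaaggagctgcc

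The S100a8 stretch of 157 bases held 1 PU.1-type match, read on the opposite strand, which 1.31% of 32851 mouse promoter windows of that length also held. The S100a9 stretch of 250 bases held 1 C/EBP-type match, as did 9.56% of the windows. Neither motif was found in the corresponding stretches before Cxcr2 (245 bases) and Siglecf (250 bases). These matches describe letters and not binding.

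Neutrophils were shallow cells. Their median was 2973.5 UMIs (quartiles 2185 and 3474.5) and 1395.5 detected genes, against 9390.5 UMIs and 2659 genes in macrophages, 8641 UMIs in monocytes, and 4728.5 in T cells. The median mitochondrial share was 3.11% in neutrophils and 4.82% in macrophages. The share of cells with a UMI of a gene moves with depth. Shares are at full depth unless stated, and some are also given after each cell was thinned at random to 1000 UMIs. The thinning left out 5 neutrophils and 94 macrophages.

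**Figure D1:**
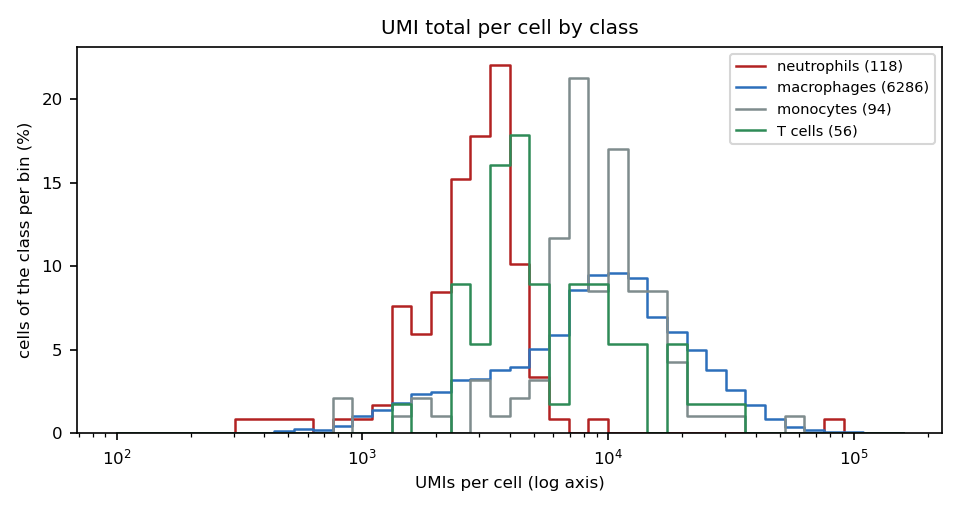
UMIs per cell on a log axis against the percent of the cells of each class in each bin, for the 118 neutrophils, 6286 macrophages, 94 monocytes, and 56 T cells. The neutrophils lie mostly to the left of the macrophages, with medians of 2973.5 and 9390.5 UMIs, and 1 barcode of 88553 UMIs stands apart at the right.

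That barcode met the rule but also held 370 UMIs of Epcam, 351 of Krt8, and 309 of Krt18, genes of the tumor epithelium, with only 19 of S100a8, 11 of S100a9, and 1 of Csf3r. It held 20.6% of the UMIs of all 118 members, while the next deepest member had 8448. For a gene that this barcode lacks, the level over all members is 1.26-fold lower than over the 117 others. Values below are over all 118 members as the rule has it, and a value without this barcode, an exclusion chosen after the data were seen, stands beside each result whose call or size depends on it.

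Among the members, S100a9 was more abundant than S100a8, with a median of 31.5 UMIs (range 2 to 307) against 14 (range 3 to 251). Csf3r had a median of 2 UMIs (range 1 to 14), and C1qa was at 0 in most members and at 1 UMI in 13. The members accounted for 82.9% of all S100a9 UMIs in the matrix and for 65.9% of all S100a8 UMIs. At the edge of the rule, 39 members had a single Csf3r UMI, and 2 members had the minimum of S100a9. Just outside it stood 31 cells that lacked Csf3r but met the other conditions. Their median was 10 UMIs of S100a8 and 11 of S100a9, 83.9% of them had an Hdc UMI, and their median depth was 2059 UMIs. A further 9 cells had S100a8 or S100a9 at 1 UMI, and 6 cells met all but the C1qa limit, with a median of 27 C1qa UMIs and 7621 UMIs in all.

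**Figure D2:**
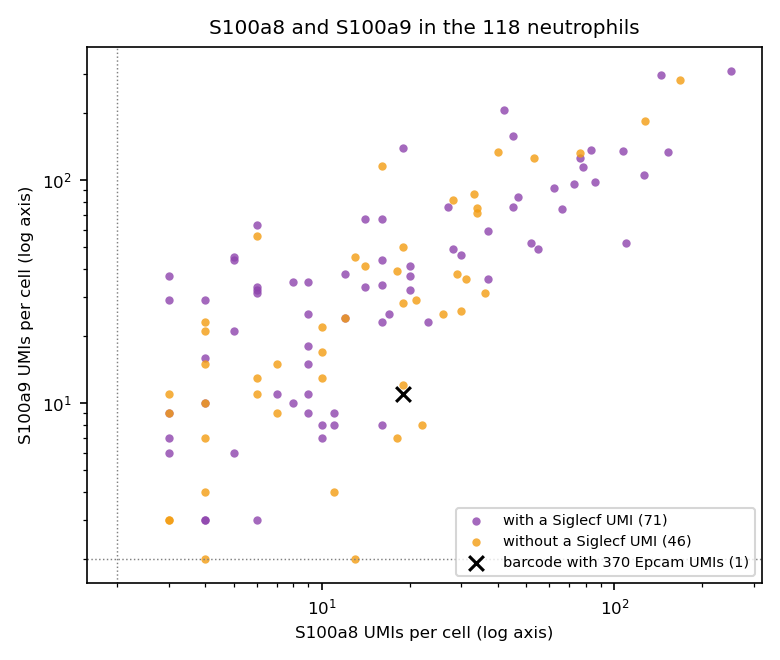
S100a8 against S100a9 UMIs per cell on log axes, with 1 point per neutrophil and dotted lines at the minimum of 2 UMIs set by the rule. Both counts run together from 3 to 251 and from 2 to 307 UMIs, and the 71 members with a Siglecf UMI and the 46 without one lie over the same range.

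Genes that the rule did not use were looked at next. Cxcr2 and Siglecf are markers given with these cells, and the other genes were listed with earlier results of these data known. Their levels therefore describe the cells and are no independent check of the label. Cxcr2, the receptor for the chemokines that draw neutrophils into tissue, stood at 251 CPM in neutrophils (CI 206 to 303), 0.317 CPM in macrophages, and 0 in both monocytes and T cells. The level was 792-fold that of macrophages, whose matched set of like depth, described further on, held 0 UMIs, and 47.5% of neutrophils had a UMI. Siglecf stood at 414 CPM (CI 356 to 480) with a UMI in 61.0% of neutrophils, against 1.37 CPM in macrophages, a 301-fold ratio. After thinning, 21.2% of neutrophils had a Cxcr2 UMI and 31.0% a Siglecf UMI, compared with 0.0161% and 0.0807% of macrophages and 0 of 56 T cells, which had the deeper libraries at full depth. G0s2, an inhibitor of lipid breakdown and a common neutrophil transcript, reached 2211 CPM in neutrophils and 0.463 CPM in macrophages. Hdc, which makes histamine from histidine, reached 1725 CPM and was seen in 90.7% of neutrophils against 1.83% of macrophages, and after thinning in 75.2% against 0.226%.

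Genes were called higher or lower if the level differed from macrophages by 4-fold or more, among 7275 genes detected in at least 10% of either class. This is a size rule and not a test. By it, 280 genes, or 3.85% of those tested, were higher in neutrophils and 481, or 6.61%, were lower. The log2 ratio of the median gene was 0.15. Of the 16 neutrophil genes outside the rule, 12 were detected widely enough to be compared and 12 of these were higher, with a median log2 ratio of 4.53. Of the 12, 6 passed the detection limit through neutrophils alone and so had to be higher, and the 6 detected in at least 10% of both classes were higher too, so this count is a description of the cells. A gene that passes through 1 class alone is bound in the same way in the lists that follow. The neutrophil genes included Il1r2, the decoy receptor for interleukin 1, at 2709 CPM against 104 CPM (26.1-fold), the lectin receptor Clec4e at 1252 against 117 CPM (10.7-fold), the amplifier of innate signals Trem1 at 505 against 30.3 CPM (16.7-fold), and Mxd1, a MYC antagonist, at 1108 against 77.9 CPM (14.2-fold). The other 4, Retnlg, Ly6g, Wfdc21, and Cd177, were scarce. Ly6g, which encodes the surface antigen most used to sort mouse neutrophils, had 0 UMIs in any of the 11639 cells, and Retnlg had 6 UMIs in 4 neutrophils.

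Without the barcode rich in epithelial transcripts, the same size rule gave 330 higher genes (4.54%) and 623 lower genes (8.56%), and the median log2 ratio was 0.07. The 20 genes with the highest ratios, among those detected in at least 25% of neutrophils, were the same 20 with and without it.

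**Figure D3:**
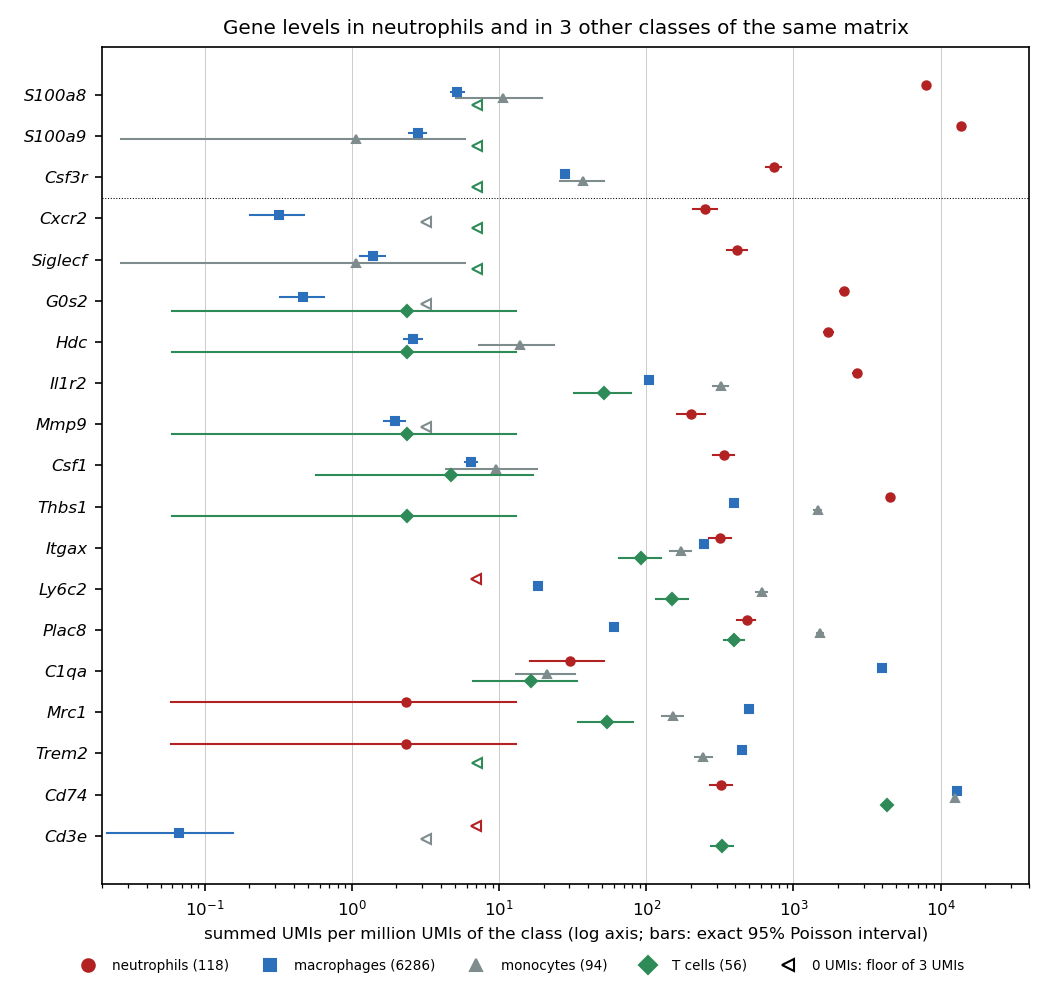
Levels of 19 genes in 4 classes, in CPM on a log axis with exact 95% Poisson intervals, in which open triangles mark the floor of 3 UMIs for genes with 0 UMIs and the dotted line parts the 3 genes required by the rule from the rest. Cxcr2, Siglecf, G0s2, Hdc, Mmp9, and Csf1 stand 52.2-fold or more above macrophages, Itgax lies at 319 CPM in neutrophils and 246 CPM in macrophages, and Mrc1 and Trem2 each have 1 UMI in neutrophils. Below the line, Ly6c2, C1qa, and Cd3e were also used to choose classes.

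Markers of other cells were mostly absent. Of 8 eosinophil markers, 7 were at 0 UMIs in the 118 neutrophils, including Epx and Prg2, which encode granule proteins, and Ccr3, the eotaxin receptor, had 1 UMI. The 5 mast cell and basophil markers were at 0. Of 5 monocyte markers compared, 1 passed the detection limit through neutrophils alone and 3 through macrophages alone. Against macrophages, 2 of the 5 were higher and 3 lower. Ly6c2, the monocyte antigen, was not among them. It was at 0 in neutrophils and at 609 CPM in monocytes, a class that was chosen by this gene. Plac8, another monocyte marker, stood at 479 CPM in 42.4% of neutrophils, 7.94-fold over macrophages and below the 1513 CPM of monocytes. Treml4 was the other higher one, with 15 UMIs (34.9 CPM) against 5.18 CPM. Of 12 macrophage markers, 11 were lower in neutrophils by 4-fold or more, with a median log2 ratio of -4.44. The detection limit was passed by 6 of the 12 through macrophages alone, and 5 of the 6 detected in both classes were lower. C1qa and Csf1r are among the 11 and were used to choose the macrophages, so their part in this count and median follows from the class rules. Mrc1, the mannose receptor, had 1 UMI (2.33 CPM) against 499 CPM, and Trem2, a lipid-sensing receptor, had 1 UMI against 447 CPM. Adgre1 (F4/80) stood at 102 CPM against 341 CPM and was not called. Of the T cell markers 6 of 7 were at 0 UMIs, as were 5 of 7 dendritic cell markers and all 3 B cell markers. The 10 genes of lowest ratio also took in the elastase Mmp12 (1 UMI against 467 CPM), the galectin Lgals1 (2 UMIs against 658 CPM), the receptor kinase Axl (1 UMI against 276 CPM), Ms4a7 (3 UMIs against 767 CPM), and the scavenger receptor Stab1 (1 UMI against 202 CPM).

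Apoe, the most abundant macrophage transcript of the list, still gave 961 CPM in neutrophils, and 63.6% of neutrophils had a UMI. T cells, which should lack it, had 235 CPM and monocytes 4473 CPM, while macrophages had 18114 CPM. Free RNA in the droplets gives such UMIs in cells that do not express a gene, and its part here was not tested.

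Granule transcripts made during maturation in the marrow were nearly absent. Of 14 such genes, 6 had 0 UMIs in all 118 members, namely the primary granule genes Mpo, Elane, and Ctsg together with Ms4a3, Camp, and Fcnb. Only 2 were detected widely enough to be compared, 1 of them through neutrophils alone, and both were higher. Mmp9, the gelatinase of the tertiary granules, stood at 202 CPM (CI 162 to 250) in 39.8% of neutrophils against 1.94 CPM in macrophages, a 104-fold ratio. Lcn2, an iron-siderophore-binding protein that mammary tumor cells also make, stood at 1206 CPM over all members but at 258 CPM over the 117 without the epithelial transcripts, which lowered its ratio from 33.2-fold to 7.11-fold. Against the macrophages matched on depth over all members, Lcn2 was at 1.35-fold and was not called, and 1 macrophage held 370 of their 385 UMIs. Ltf, the secondary granule protein lactoferrin, had 11 UMIs in the 117 members, and the epithelial-rich barcode held the rest of its 471 UMIs. Cebpe, the factor that drives granule maturation, had 11 UMIs in all.

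A list of 12 genes has been linked to Siglec-F-high tumor neutrophils. Of these, 3 passed the detection limit through neutrophils alone and 1 through macrophages alone. Of the 8 detected in both classes, 3 were higher and 1 was lower. In all, 6 of the 12 were higher and 2 were lower than in macrophages, with a median log2 ratio of 2.08. Besides Siglecf itself these were Csf1, the macrophage growth factor, at 335 CPM against 6.43 CPM (52.2-fold), Vegfa, the angiogenic factor, at 1206 against 188 CPM (6.42-fold), Tnfrsf23, a decoy receptor for TRAIL, at 69.8 against 5.31 CPM (13.1-fold), Hilpda, a lipid droplet protein, at 752 against 163 CPM (4.61-fold), and Ltc4s, which makes leukotriene C4, at 200 against 43.7 CPM (4.58-fold). The chemokine Ccl3 passed the 4-fold size only without the epithelial-rich barcode, at 4.77-fold instead of 3.89-fold. Hmox1, which degrades heme, was 11.3-fold lower, and Dcstamp had 0 UMIs, at least 5.78-fold lower than the 40.4 CPM of macrophages on a floor of 3 UMIs over the class. Without barcode run 6, Vegfa was at 3.74-fold. All these ratios are to macrophages and do not set members with Siglecf against members without it. Without the epithelial-rich barcode, members with a Siglecf UMI over those without one gave other ratios. At full depth they were 0.619 for Csf1, 1.07 for Vegfa, 0.639 for Tnfrsf23, 1.32 for Hilpda, and 1.24 for Ltc4s. These groups differ in depth. After thinning, which redraws the division, the ratios were 1.47, 0.766, 1.44, 1.43, and 1.5 in the same order. For Csf1, Vegfa, and Tnfrsf23 the direction thus differed between full depth and thinning, so no direction is given for them.

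Of 11 receptors for chemoattractants compared, 3 were higher and 3 lower. Of the 11, 2 passed the detection limit through neutrophils alone and 3 through macrophages alone. Of the 6 detected in both classes, 1 was higher and 0 were lower. Cxcr2 was joined by Fpr2, a formyl peptide receptor, at 126 against 3.94 CPM (31.9-fold) and by Ccr1, a receptor for CCL3 and related chemokines, at 975 against 190 CPM (5.13-fold). Ccr2, the receptor that brings monocytes into tissue, was 12.2-fold lower at 18.6 CPM, and C3ar1, the receptor for complement C3a, had 1 UMI against 286 CPM. Cxcr4, which retains neutrophils in the marrow and rises on aged ones, stood at 810 CPM against 275 CPM, a 2.95-fold ratio below the 4-fold size. Without the epithelial-rich barcode Ccrl2, a chemerin-binding receptor, also passed, at 4.27-fold.

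Among 17 secreted factors compared, 3 were higher and 4 lower. Of the 17, 1 passed the detection limit through neutrophils alone and 4 through macrophages alone. Of the 12 detected in both classes, 2 were higher and 1 was lower. Thbs1, encoding thrombospondin 1, which restrains angiogenesis and can activate TGF-β, was at 4518 CPM (CI 4319 to 4723) in 77.1% of neutrophils against 396 CPM in macrophages and 1460 CPM in monocytes. It varied widely among members, from 0 to 130 UMIs with a median of 9. Il1b was the most abundant cytokine at 6082 CPM, with a UMI in 90.7% of neutrophils, against 1604 CPM in macrophages. Its ratio was 3.79-fold over all members and 4.71-fold without the epithelial-rich barcode. Cxcl2, a ligand of CXCR2, was at 4967 CPM against 2692 CPM (1.85-fold). The 4 lower genes were macrophage products, namely Il10 (1 UMI against 145 CPM), Ccl2 (30.2-fold lower at 23.3 CPM), Ccl6 (18.2-fold lower at 51.2 CPM), and Cxcl16 (15.4-fold lower at 46.5 CPM, and 27.1-fold without the epithelial-rich barcode). Cxcl1 was called lower only without the epithelial-rich barcode, at 35.2 CPM against 385 CPM.

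The coagulation and plasminogen genes were of interest because the study concerns factor X. F10, which encodes it, had 56 UMIs in neutrophils, or 130 CPM (CI 98.5 to 169), with a UMI in 17.8% of cells. Macrophages had 33.0 CPM, monocytes 135 CPM, and T cells 0 UMIs. After thinning, 8.85% of neutrophils and 1.89% of macrophages had a UMI. The ratio to macrophages was 3.95-fold over all members, below the 4-fold size, and 4.98-fold without the epithelial-rich barcode. F7, which encodes the factor VII that activates factor X, had 0 UMIs in neutrophils and stood at 25.8 CPM in macrophages. F2rl1, which encodes PAR2, had 1 UMI in the 117 members without the epithelial transcripts. Of 9 genes of this list compared, 6 passed the detection limit through macrophages alone. Of the 9, 1 (Thbs1) was higher and 5 were lower, with a median log2 ratio of -2.10, and 0 of the 3 detected in both classes were lower. The lower ones included F13a1, the transglutaminase that crosslinks fibrin (1 UMI against 287 CPM), Pf4 (49.9-fold lower at 9.31 CPM), and Procr, the protein C receptor (0 UMIs, at least 5.73-fold lower than 40.0 CPM). Another, Plau, was 4.28-fold lower over all members and 3.88-fold lower without the epithelial-rich barcode. Of the 5 platelet markers, Itga2b had 1 UMI, in that barcode, and the others were at 0.

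All 7 MHC class II genes compared were lower by 4-fold or more, with a median log2 ratio of -4.79. Of the 7, 3 passed the detection limit through macrophages alone. Cd74, the invariant chain, stood at 324 CPM against 12840 CPM (39.7-fold lower), and H2-Ab1 at 244 against 7315 CPM (29.9-fold lower). Ciita, the master regulator of these genes, had 0 UMIs, at least 4.49-fold lower than the 31.4 CPM of macrophages on the floor of 3 UMIs, and the bound was 3.57-fold without the epithelial-rich barcode. A single member of 8448 UMIs held 47.6% of the MHC class II UMIs of the 117 members, and without it their summed level was 718 CPM. T cells of the same matrix stood at 10323 CPM for this list. The T cell class also held 507 CPM of the dendritic cell markers, against 427 CPM in monocytes and 97.2 CPM in macrophages. Its purity was not tested.

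The NADPH oxidase, which makes the respiratory burst, was uneven. Cybb, encoding the catalytic subunit gp91phox, was 16.1-fold lower at 41.9 CPM (CI 24.8 to 66.2) against 676 CPM, with a UMI at full depth in 8.47% of neutrophils and 91.8% of the deeper macrophages. Its partner Cyba was at 745 against 1353 CPM, while the cytosolic subunits Ncf1 and Ncf4 were at 2.56- and 1.62-fold the macrophage level. Rac2, the GTPase that completes the complex, was at 631 against 180 CPM, a ratio of 3.51-fold that became 4.35-fold without the epithelial-rich barcode.

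In the transcription factors of myeloid fate, 2 of 11 were higher and 4 were lower. Of the 11, 4 passed the detection limit through macrophages alone. Of the 7 detected in both classes, 2 were higher and 0 were lower. Cebpb, which sustains emergency granulopoiesis, was at 5141 CPM in neutrophils and 1215 CPM in macrophages (4.23-fold, and 3.39-fold without barcode run 6), and 98.3% of neutrophils had a UMI. Cebpd stood at 119 against 27.7 CPM, and its 4.29-fold ratio was 3.49-fold without the epithelial-rich barcode. The macrophage and dendritic cell factors were low. Irf8 had 1 UMI against 201 CPM, Maf was 13.8-fold lower, and Cebpa was 14.4-fold lower (28.7-fold without the epithelial-rich barcode). Spi1, encoding PU.1, was at 426 CPM against 326 CPM.

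Of 11 sensors of microbes and damage compared, 4 were higher and 0 lower, with a median log2 ratio of 1.29. The higher ones were Clec4d, Clec4e, and Trem1, already counted among the neutrophil genes, and Nlrp12, an inhibitory NOD-like receptor with 18 UMIs. Nlrp12 was at 0.0529 CPM in macrophages and passed the detection limit through neutrophils alone. Clec4n (dectin-2) was at 580 against 157 CPM, 3.69-fold over all members and 4.60-fold without the epithelial-rich barcode. Cd14, the co-receptor for endotoxin, was at 1815 against 1883 CPM, and Nlrp3, the inflammasome sensor, was at 533 against 315 CPM.

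Survival genes were within 4-fold of macrophages apart from Bcl2l1, encoding BCL-XL, which was the 1 of 12 called, at 263 against 52.5 CPM (5.01-fold). Over all tested genes 3.85% were higher and 6.61% lower, so this count does not set the list apart. Mcl1, on which neutrophil survival is known to depend, was at 2232 against 1002 CPM and was seen in 97.5% of neutrophils. Bcl2a1a, Bcl2a1b, and Bcl2a1d are near-identical copies whose UMIs may be divided among them, and were 1.23-, 0.632-, and 0.865-fold of macrophages.

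Among suppressive and checkpoint genes, 2 of 10 were higher and 1, Il10, was lower. Il10 passed the detection limit through macrophages alone. Ptgs2, encoding cyclooxygenase 2, was at 1317 against 176 CPM (7.48-fold), and Arg2, the mitochondrial arginase, at 163 against 28.1 CPM (5.79-fold). Arg1 and Nos2 had 0 UMIs in neutrophils, and Cd274, encoding PD-L1, was at 81.5 against 37.5 CPM.

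The interferon-induced genes did not move together. Of 13 compared, 1 was higher and 2 were lower, with a median log2 ratio of -0.22, where 3.85% of all tested genes were higher and 6.61% lower. Of the 13, 1 passed the detection limit through neutrophils alone and 6 through macrophages alone. Of the 6 detected in both classes, 0 were higher and 0 lower. Ifitm1, which restricts viral entry, was the exception at 2053 CPM (CI 1920 to 2193) against 29.4 CPM, 69.8-fold, with 461 CPM in monocytes, while its neighbors Ifitm2 and Ifitm3 were at 2.95- and 0.821-fold. Cxcl10 was 7.51-fold lower. Mid1 was 4.76-fold lower, or 3.78-fold without the epithelial-rich barcode. Isg15 was at 237 against 169 CPM.

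Glycolysis and hypoxia genes were within 4-fold of macrophages except Slc2a3, the glucose transporter GLUT3, at 55.9 against 2.95 CPM (18.9-fold), which was the 1 of 16 called. Slc2a3 passed the detection limit through neutrophils alone. Over all tested genes 3.85% were higher and 6.61% lower, so this count does not set the list apart. Slc2a1 (GLUT1) was at 170 against 68.3 CPM and Ldha at 361 against 532 CPM. Of 8 S100 genes compared, S100a8 and S100a9 were higher by the rule, S100a11 was at 1131 against 302 CPM (3.74-fold), and S100a4 and S100a10 were lower, by 36.5- and 5.25-fold, the latter by 12.2-fold without the epithelial-rich barcode. Of the 8, 3 passed the detection limit through macrophages alone, and of the 3 detected in both classes 0 were higher and 0 lower. Of 5 cycling genes, 4 were lower, among them Mki67 with 0 UMIs, at least 9.16-fold lower. The detection limit was passed by 3 of the 5 through macrophages alone, and 1 of the 2 detected in both classes was lower.

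Of 9 adhesion genes compared, 0 were higher, and Itgb7 alone was lower, by 4.41-fold on 2 UMIs and by 3.50-fold without the epithelial-rich barcode. Itgb7 passed the detection limit through macrophages alone, and 3.85% of all tested genes were higher and 6.61% lower. Itgax, whose product was used for the selection, was at 319 CPM (CI 268 to 377) in neutrophils and 246 CPM in macrophages, a ratio of 1.30-fold. Itgam, encoding CD11b, was at 393 against 201 CPM.

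**Figure D4:**
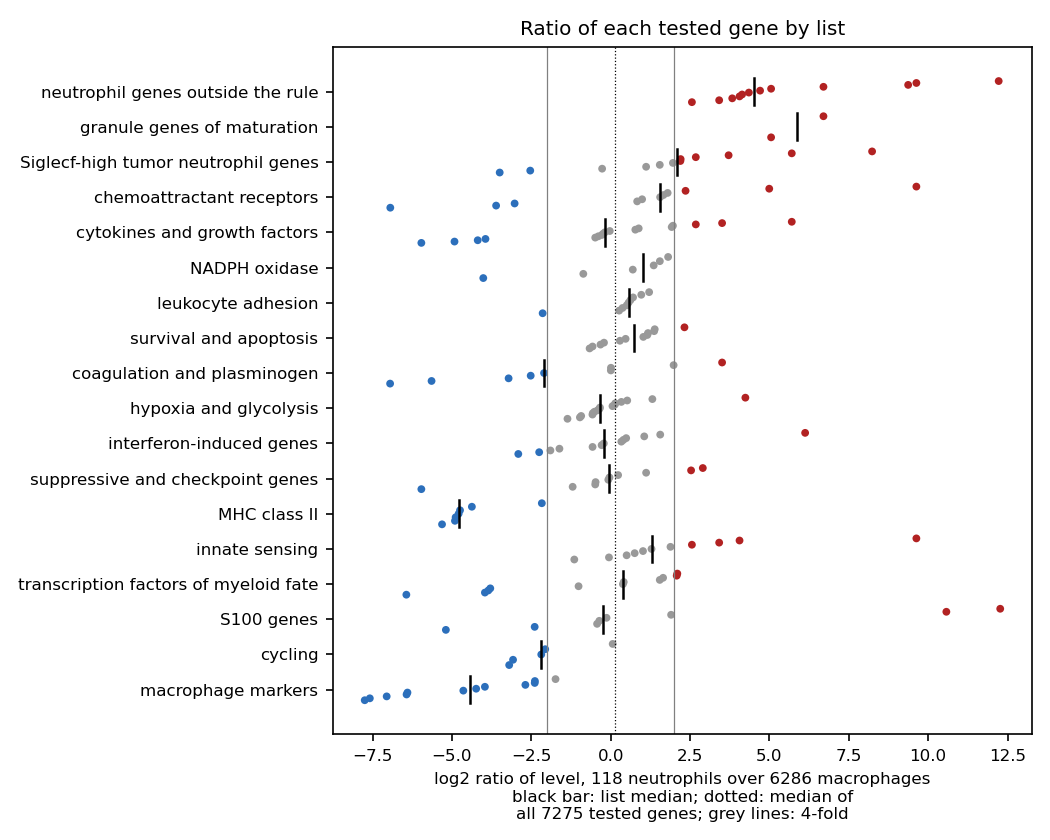
Log2 ratio of level in the 118 neutrophils over the 6286 macrophages for each tested gene of 18 lists, with black bars at the list medians, a dotted line at the median of all 7275 tested genes (0.15), and grey lines at 4-fold. The neutrophil genes outside the rule all lie right of the upper 4-fold line, and the MHC class II genes all lie left of the lower one.

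The neutrophils were unevenly spread over the barcode runs. The 6 runs held 2, 29, 5, 0, 21, and 61 of them, or 0.128%, 1.04%, 0.247%, 0%, 0.806%, and 2.65% of their cells. The run without any had 0 of 360 cells, which allows a share of up to 0.833% by a floor of 3 cells. Run 6 therefore gave the most neutrophils both in number and as a share, with an interval of 2.03% to 3.39% that overlaps no other. Macrophages ranged less, from 43.6% to 73.9% of the cells of a run. Which samples these runs are is not known, so this spread cannot be read as one between mice or genotypes.

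Levels were compared within the 3 runs that held at least 20 neutrophils. Cxcr2 was at 311, 287, and 291 CPM in the neutrophils of runs 2, 5, and 6, and at 0.475, 0.343, and 0.51 CPM in their macrophages. Siglecf was at 492, 669, and 532 CPM and Hdc at 2006, 1682, and 2132 CPM in the same order. These levels kept within a narrow band from run to run. Thbs1 was at 3689, 4357, and 6794 CPM, and Il1b at 6717, 9917, and 7264 CPM, with macrophage levels of 570, 308, and 329 CPM and of 2090, 1593, and 1365 CPM. Within runs Il1b was thus 3.21-, 6.23-, and 5.32-fold above macrophages. F10 was at 104, 248, and 169 CPM against 21.5, 37.6, and 31.9 CPM, or 4.82-, 6.61-, and 5.29-fold.

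Csf1 was the least even of these, at 608, 994, and 81.8 CPM in runs 2, 5, and 6, while macrophages were at 6.38, 6.35, and 6.19 CPM. H2-Ab1 also varied, at 725, 325, and 138 CPM, in each case far under the macrophages of its run. Of the 330 genes called higher without the epithelial-rich barcode, 182 were 4-fold or more higher in each of the 3 runs and 313 were above 1 in each. Of the 623 called lower, 109 were 4-fold or more lower in each run and 315 were below 1 in each. A low gene often had no UMI in the few neutrophils of a run, and a ratio could be given in every run for 315 of the higher and 317 of the lower genes.

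**Figure D5:**
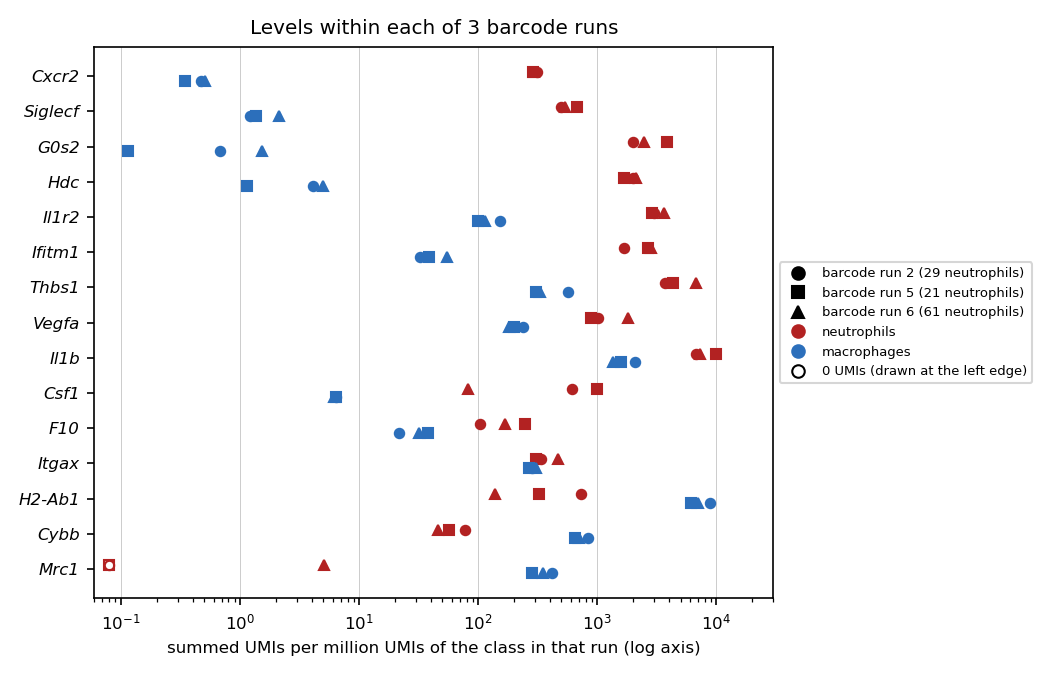
Levels of 15 genes in neutrophils and in macrophages, in CPM on a log axis, with 1 symbol for each of the barcode runs 2, 5, and 6, which held 29, 21, and 61 neutrophils. Neutrophil and macrophage symbols of Itgax lie closest, at 336, 306, and 465 CPM against 281, 267, and 305 CPM, and Csf1 in neutrophils ranges from 81.8 to 994 CPM.

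Against 118 macrophages chosen one by one for the nearest UMI total (median 2971.5 UMIs), the ratios given here kept their direction. Thbs1 was then 14.6-fold, Vegfa 9.27-fold, Il1b 6.06-fold, and Ifitm1 147-fold higher, the ratio of H2-Ab1 was 0.0338, and that of Itgax was 1.30. These macrophages held only 430535 UMIs and 0 of Cxcr2, Siglecf, G0s2, Hdc, Mmp9, and F10, so that on the floor of 3 UMIs Cxcr2 was at least 36.1-fold, Siglecf at least 59.5-fold, G0s2 at least 317-fold, Hdc at least 248-fold, Mmp9 at least 29.1-fold, and F10 at least 18.7-fold higher. In cells thinned to 1000 UMIs, Thbs1 was 12.5-fold, Vegfa 7.16-fold, and F10 8.40-fold higher.

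Siglecf divided the members without marking off a group. Of the 118, 36 had UMIs of both Siglecf and Cxcr2, 36 of Siglecf alone, 20 of Cxcr2 alone, and 26 of neither. Siglecf reached 9 UMIs and had a median of 1. Members with a UMI made up 62.1%, 66.7%, and 63.9% of the neutrophils of runs 2, 5, and 6, and 0 of the 5 in run 3. Among the 117 members without the epithelial transcripts, 71 had a Siglecf UMI and a median depth of 3286 UMIs, whereas the 46 without one had 2439.5 UMIs, so that the groups differ in depth as well.

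Between these members, 1587 genes detected in at least 25% of them could be compared. Only 1 of them was 4-fold or more higher with Siglecf and 2 were 4-fold or more lower, and the median ratio was 1.03. Depth was then evened out in 2 ways, by thinning, which redraws the division (40 members with a Siglecf UMI and 72 without), and by taking the deeper members alone (47 with a median of 3454 UMIs and 12 with 3606.5). The highest ratio was that of Tnrc18 at 200 against 37.7 CPM (5.30-fold), which was 1.05 after thinning and 4.73 among the deeper members. Trf, encoding transferrin, was at 557 against 141 CPM (3.94-fold), 2.70-fold after thinning, and 2.91-fold among the deeper members. Phc2, a Polycomb protein, was at 3.95-, 2.70-, and 2.33-fold, and Fcho2, an endocytic adaptor, at 3.69-, 2.20-, and 2.30-fold in the same order. The other 6 of the 10 highest genes, H2-Aa, Atrx, Rhoq, Cd74, Plac8, and Hnrnpab, had ratios of 2.98 to 3.65 at full depth of 0.614 to 1.16 after thinning, and of 2.41 to 5.54 among the deeper members. For these 6 and Tnrc18 the ways of evening depth therefore gave different answers, and 1 member held 51.4% of the H2-Aa UMIs and 48.1% of the Cd74 UMIs.

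The 5 genes of lowest ratio were below 1 after thinning, and 4 of them, all but S100a6, were also below 1 among the deeper members. Acod1, which makes itaconate, was at 208 CPM in members with a Siglecf UMI and 981 CPM in those without (4.70-fold lower), and its ratio was 0.279 after thinning and 0.605 among the deeper members. Spp1 (osteopontin) was at 102 against 443 CPM (4.34-fold lower) and Il1rn, the interleukin 1 receptor antagonist, at 294 against 924 CPM (3.15-fold lower), with ratios of 0.379 and 0.267 after thinning and of 0.156 and 0.209 among the deeper members. These 3 genes and Plk3, a stress-induced kinase with a ratio of 0.321 (0.789 among the deeper members), were lower with Siglecf in each of the runs 2, 5, and 6, whereas S100a6, with a ratio of 0.322 (1.56 among the deeper members), was lower in 2 of them. Few cells carried some of them, since the 5 members with the most Acod1 held 52.3% of its UMIs and those with the most Spp1 59.2%. For Spp1, 1 member held 32.4% of its UMIs. At full depth Spp1 was seen in 28.2% of members with a Siglecf UMI and in 23.9% of those without one. Ccl4, a chemokine detected in too few members for that ranking and singled out after its values were seen, was at 183 against 2763 CPM, and 5 members held 76.2% of its UMIs. Cxcr2 itself was at 243 against 462 CPM, a ratio of 0.525 that was 0.195 after thinning and below 1 in each run. S100a8 and S100a9 had ratios of 0.985 and 0.886.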

How the data were processed

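Per the files the authors deposited, values are raw UMI counts, held as 1 sparse matrix for the 6 CD11c-selected and 1 for the 6 CD4/CD8-selected samples, with files of barcodes and gene symbols, and the submitters' processing notes name Cell Ranger 3.0.2 and the mm10 build. Samples were grouped by the genotype in their titles, but no barcode was linked to a sample. Cells with under 200 genes (341) were left out. Classes, CPM, and exact intervals were computed with Python 3.11.15, numpy 2.4.6, scipy 1.17.1, pandas 2.3.3, and scanpy 1.11.5 (Scrublet, thinning seed 1). Folds against 0 UMIs use a floor of 3 UMIs over the class. The scripts were tested on simulated data. Scrublet marked 0 of 11639 cells, so it did not work here and no doublets were removed. Named genes were the listed genes, the 20 highest and 10 lowest ratios over macrophages, with a UMI in 25% or more of the class, and, for Siglecf, the 10 highest and 5 lowest, and Ccl4 was chosen after its values were seen. The members and gene lists were chosen with earlier results of these data known. Motifs were searched in RefSeq promoter windows, held for Cxcr2, Siglecf, S100a8, and S100a9. The alternatives were other rule limits, thinning, depth matching, means over cells, and leaving out each barcode run. A few listed or highly ranked genes are not reported here.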

Additional observations from a re-analysis of the deposited data

How the results depend on the processing

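The number of neutrophils moved from 118 to 94 with at least 5 UMIs of S100a8 and of S100a9, and to 149 with no condition on Csf3r. Leaving out barcode run 2, 5, or 6 left 89, 97, or 57. The count of 280 higher genes (3.85% of 7275) became 1774 (9.43% of 18808) when all genes with at least 1 UMI entered. The count of 481 lower genes (6.61%) became 746 (10.3% of 7275) with means over cells. Against macrophages matched on the UMI total it was 303 (6.20% of 4888). Leaving out 1 run gave 270 to 327 higher and 392 to 619 lower genes. Of 24 key genes, 19 were called, and 16 of these were past 4-fold in every setting. The exceptions were Vegfa (3.74 to 9.98), Cebpb (3.39 to 6.31), and Lcn2 (1.35 to 51.7), and the cause was not tested. None of 384 values of these genes changed direction when called. No paired analysis was possible because no barcode carries a sample or replicate number. Depth limits genes under 6.98 CPM in neutrophils, the floor of 3 UMIs. The split by genotype, the share of neutrophils before CD11c selection, and replicate error were not analysed here.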

Other observations

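Among the 20 genes of highest ratio over macrophages, several are not usual neutrophil markers. Gpc3, encoding the heparan sulfate proteoglycan glypican 3, had 59 UMIs in neutrophils (137 CPM, CI 105 to 177), with a UMI in 28.0% of them, against 0.172 CPM in macrophages and 0 in monocytes and T cells. Entpd3, an ectonucleotidase, was at 130 against 1.76 CPM, and Igfbp6, which binds insulin-like growth factor II, at 242 against 6.05 CPM. In the 117 members Epcam was at 17.6 CPM against 22.4 CPM in macrophages, and Krt8 and Krt18 were at 46.9 and 49.8 CPM against 35.4 and 26.7 CPM, while Wfdc18, a milk protein gene that the tumor expresses, was at 314 CPM against 73.1 CPM, with 77.5 CPM in T cells. Entpd3 was at 142, 172, and 169 CPM, and Igfbp6 at 311, 344, and 296 CPM in the neutrophils of barcode runs 2, 5, and 6.

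Other genes of this group were Pglyrp1, a peptidoglycan-binding granule protein, at 93.1 against 1.00 CPM (with 91.6 CPM in T cells), Osgin1, an oxidative stress gene, at 475 against 12.9 CPM, and the class I gene H2-Q10 at 154 against 4.14 CPM, which is uncertain since it shares reads with near-identical relatives. Rnf125, a ubiquitin ligase, was at 128 against 1.56 CPM and Slc22a15, a membrane transporter, at 116 against 2.92 CPM, while the transcripts Mirt1 and 4833407H14Rik were at 114 against 0.608 CPM and at 247 against 3.28 CPM.

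In the CD4/CD8-selected matrix of 22806 cells, 1 cell met the neutrophil rule, or 0.00438% (CI 0.000111% to 0.0244%). It had UMIs of Il1r2 and Hdc and none of Cxcr2, Siglecf, G0s2, or Cd3e.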
